A study of Mus musculus with 50 samples.

Results

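The regions described here are 3' UTR m6A peaks that accompany a peak at the stop codon of the same transcript. A peak was taken when the authors' table of de novo peaks places it in the 3' UTR, when it lies within 50 nt of a consensus motif, and when its transcript also has at least 1 peak around the stop codon. There were 2248 such peaks among 32009 in the table (7.02%), on 1421 of 14219 transcripts. They made up 40.5% of the 5550 peaks that the table places in the 3' UTR. The choice rests on where peaks were called and on the motif distance, both read from the same libraries, so the presence of a stop-codon peak and a distance of at most 50 nt are not findings. The score difference between the arms of the experiment was not used to choose them.

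The data came from mouse B cells kept overnight with LPS, a component of the bacterial outer membrane to which B cells respond by proliferating. Of the 50 samples of the series, 12 were m6A-seq libraries in 4 groups of 3: immunoprecipitated (IP) and Input RNA from AIDcre Mettl3-flox/+ cells and from AIDcre Mettl3-flox/flox cells. AIDcre, carried by both genotypes, is a recombinase under control of the gene for AID, an enzyme that activated B cells switch on, and how far METTL3 was lost by the end of the culture was not measured here. The labels do not state whether replicates came from separate mice, their strain field changes from sample to sample within a group, and the design text calls the cells wild type where the labels give the genotypes above. The remaining 38 samples measured gene expression in germinal center B cells and were not used here.

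N6-methyladenosine (m6A) is a methyl mark placed on adenosines of messenger RNA by a nuclear complex whose catalytic subunit is METTL3. The complex prefers a short sequence motif, and in mammals the mark is known to gather around stop codons, in long internal exons and in 3' UTRs. Reader proteins bind it there: YTHDF2 recruits the machinery that removes the poly(A) tail and so shortens the life of the message, whereas IGF2BP proteins are known for stabilising their targets. A message can carry several such marks along its last exon, and antibody-based profiling sees them as separate peaks only where the RNA fragments resolve them.

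Scores were deposited pooled, 1 value per arm and peak, in 2 versions; the table calls its arms test and control without naming a genotype. Peaks of the authors' METTL3-dependent list score higher in the test arm, which is for that reason read as flox/+, and the arm called control, here the comparator arm, as flox/flox. Every direction between genotypes rests on that reading. How the scores were calculated is not given in the sources at hand, so values are in score units. No library had a value or a read total of its own, so the depth is unknown, no spread between replicates can be set on a peak, and no test between the arms was possible beyond the authors' own p-values. Values of sets of peaks are therefore given side by side as descriptions.

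All 2248 peaks lay downstream of every stop-codon peak of their transcript. The position labels of the 2 kinds of peak imply this order, so it is not a finding. The distance along the transcript to the nearest stop-codon peak ran from 51 to 9397 nt, with a median of 533 nt (quartiles 269 to 1200). Within 100 nt there were 114 of them (5.07%), and 667 (29.7%) lay beyond 1000 nt. For 2202 (98.0%) the genomic distance equalled the transcript distance to within 2 nt, so no intron separated the 2 peaks in those cases. The genomic distance was longer for 46, by over 1000 nt for 30 of them. Peaks of this set were thus, with few exceptions, on the same stretch of exon as the stop-codon peak they accompanied.

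Most of the peaks scored higher in the test arm. On the first version its median score was 2.25 (quartiles 1.68 to 2.94), and that of the comparator arm was 1.66 (0.98 to 2.34). The difference per peak, test minus comparator, had a median of 0.63 (0.11 to 1.11) and was above 0 for 1790 peaks (79.6%). Over all peaks of the table the median difference was 0.25, and 61.7% were above 0. On the second version the medians were 3.27 and 2.30, the median difference was 0.87 (0.40 to 1.36) and 1984 peaks (88.3%) were above 0, against 0.49 and 70.0% over all peaks. Both versions put 1712 peaks (76.2%) higher in the test arm and 185 (8.23%) lower, and they disagreed in sign for 351 (15.6%). Over all peaks these shares were 54.5%, 22.5% and 23.0%.

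**Figure D1:**
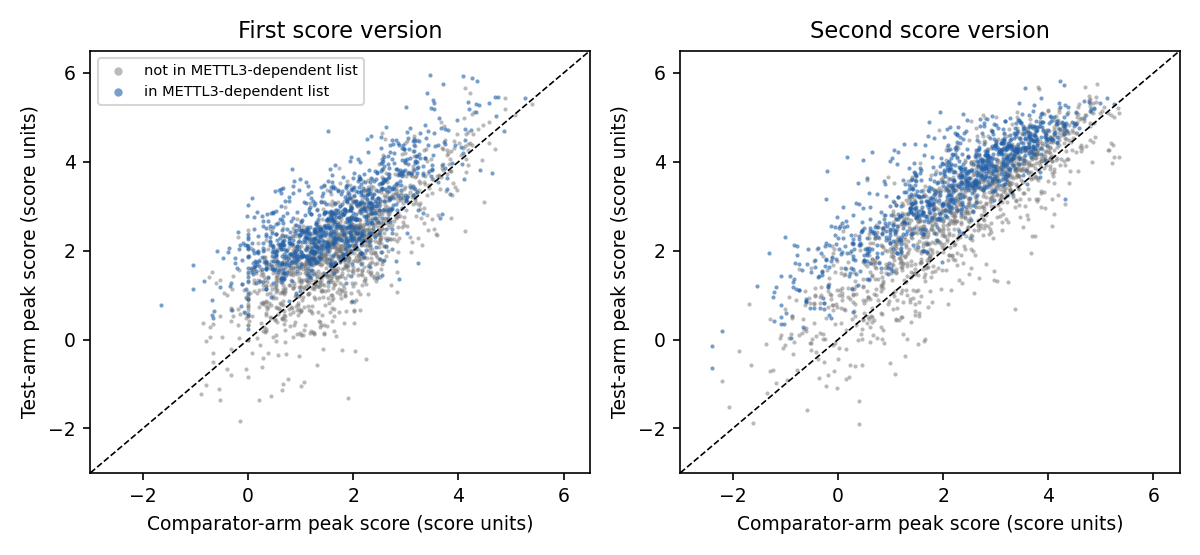
Peak score in the test arm (y axis) against the comparator arm (x axis), in score units, for the 2248 peaks on the first (left) and second (right) score version; each point is 1 peak, blue where the authors list it as METTL3-dependent, and the dashed line marks equal scores. Most points lie above the line, 79.6% (left) and 88.3% (right).

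The nearest relatives of these peaks had similar values. The 2336 peaks of the 3' UTR that lie within 50 nt of the motif on transcripts without a stop-codon peak had a median first-version difference of 0.57 and a median second-version difference of 0.91. The 1858 stop-codon peaks of the same 1421 transcripts had 0.60 and 0.85. The 966 peaks of the 3' UTR farther than 50 nt from the motif had 0.37 and 0.61. The order of the first 3 sets changed with the score version, whereas the far set was the lowest of the 4 on both.

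The authors' list of METTL3-dependent peaks takes every peak whose unadjusted p was under 0.1, and whose test arm was higher, on at least 1 of the score versions (not necessarily the same). It held 912 of the 2248 peaks (40.6%, exact Clopper-Pearson 95% interval 38.5% to 42.6%), where 28.1% of all 32009 peaks are listed. The list held 40.3% of the 3' UTR peaks without a stop-codon peak, 44.7% of the stop-codon peaks of the same transcripts and 21.4% of the 3' UTR peaks far from the motif. The interval covers counting error only and treats peaks as independent, which peaks of 1 transcript are not. The mirror-image rule, which asks for a higher comparator arm on at least 1 version, was met by 81 peaks (3.60%), against 10.7% of all peaks. Of these 81, 58 were also listed (71.6%), as were 1189 of the 3430 in the whole table (34.7%), since the 2 versions can point in different directions.

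An unadjusted p under 0.05 with a higher test arm was given to 295 peaks by the first version (13.1%, against 8.18% of all peaks) and to 435 by the second (19.4%, against 12.9%). With a higher comparator arm the counts were 16 by the first version (0.712%, against 3.35%) and 4 by the second (0.178%, against 2.01%). No peak of the table had a Benjamini-Hochberg adjusted p under 0.05 after the deposited p-values were adjusted across the whole table (0% of all). The smallest adjusted values in this set were 0.351 and 0.219 on the 2 versions. A listed peak is therefore one the authors placed in their list, not one that passed correction.

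The table also counts peaks per arm from 0 to 3, taken here to be how many replicates called it. No replicate called 389 of these 3' UTR peaks (17.3%), close to the 15.9% of all peaks. At least 2 test replicates called 557 of them (24.8%, against 29.4% of all peaks), and at least 2 comparator replicates called 277 (12.3%, against 24.1%). More test than comparator replicates called 1076 (47.9%, against 38.0%), and the reverse held for 549 (24.4%, against 29.3%). Calls in all 3 test replicates and no comparator replicate were recorded for 67 (2.98%, against 1.95%), and the converse for 2 (0.0890%, against 0.918%). All 6 replicates called 74 (3.29%, against 9.58%). Of the 3' UTR peaks near the motif without a stop-codon peak, 18.6% had no call. At least 2 test replicates called 26.9% of those, at least 2 comparator replicates 14.7% and all 6 replicates 5.35%. Among 3' UTR peaks far from the motif, 20.7% had no call and 7.97% had calls in at least 2 test replicates.

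The calls and the scores come from the same libraries and are not separate evidence. The 67 peaks called in 3 test and 0 comparator replicates had a median first-version difference of 1.12 and 51 of them were listed. The 74 called in all 6 replicates had 0.39 and 43 were listed. The 389 called nowhere had 0.49 and 127 were listed. With more replicates in the better arm, the listed share went from 32.6% with none to 36.5% with 1, 46.6% with 2 and 61.1% with 3, while the median difference went from 0.49 to 0.64, 0.67 and 0.68. The median of the mean score of both arms went over the same steps from 1.39 to 1.76, 2.26 and 2.74. Its part in the listed share was not tested. Among all 32009 peaks, 28.1% were listed, but that share was not split by calls. Whether the rise with calls is particular to these 3' UTR peaks was therefore not tested.

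**Figure D2:**
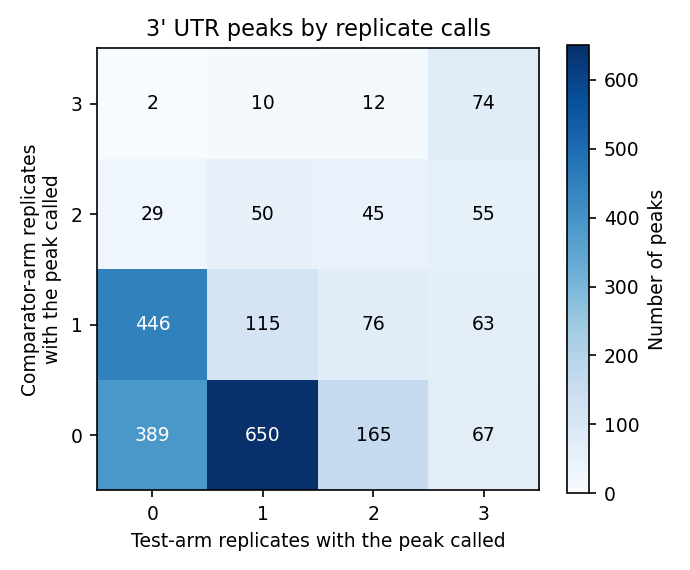
Number of the 2248 peaks by how many test-arm replicates (x axis) and comparator-arm replicates (y axis) called the peak; darker cells hold more peaks. Single calls in the test arm alone (650) outnumber single calls in the comparator arm alone (446), and 389 peaks have no call (17.3%, against 15.9% of all peaks). Single calls were not counted over the whole table, where 38.0% of peaks had more test calls and 29.3% more comparator calls.

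Each peak was then set against the nearest stop-codon peak of its own transcript. The 3' UTR peak scored lower, in both arms alike: the mean score of the arms on the first version had a median of 1.93 at the 3' UTR peak and 2.46 at the stop-codon peak, and the median gap within pairs was -0.32 (quartiles -1.20 to 0.16). The 3' UTR peak was the lower of the 2 in 1519 of 2248 pairs (67.6%). The second version gave a median gap of -0.32 and 64.6%. The test minus comparator difference did not follow this gap in strength: it was larger at the 3' UTR peak in 1169 pairs (52.0%) and smaller in 1079 (48.0%), with a median gap of 0.038 (-0.42 to 0.48) by the first version and 0.025 (-0.52 to 0.57) by the second.

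How alike the 2 peaks of a pair were depended on how far apart they lay. In the 114 pairs within 100 nt, Spearman's rho between the mean scores was 0.96 by the first version and 0.91 by the second. Of these pairs 72.8% had first-version mean scores within 0.25 of each other, but only 44.7% had second-version mean scores that close. In the 281 pairs over 100 and up to 200 nt, rho was 0.90 and 0.84. It was 0.67 and 0.68 in the 249 pairs up to 300 nt, and 0.43 and 0.61 in the 427 up to 500 nt. In the 510 pairs up to 1000 nt it was 0.18 and 0.45, in the 397 up to 2000 nt 0.061 and 0.36, and in the 270 beyond 2000 nt -0.0076 and 0.20. Only 11.5% of those farthest pairs had first-version mean scores within 0.25 of each other.

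The score differences followed the same order with distance. Within 100 nt rho between the test minus comparator differences was 0.88 by the first version and 0.63 by the second. Beyond 2000 nt it was 0.15 and 0.039. These are correlations over pairs from the same pooled libraries, and several pairs can share 1 stop-codon peak (the 2248 pairs held 1421 distinct ones), so no p-value is given. Nearby peaks can also draw on the same RNA fragments, and their scores then count the same reads in part; how much was not tested. Results for peaks at least 200 nt from the stop-codon peak are therefore given as well: of these 1854, 39.4% were listed and the median first-version difference was 0.61, and the median score gap to the stop-codon peak was -0.54 where it was -0.32 over all pairs.

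**Figure D3:**
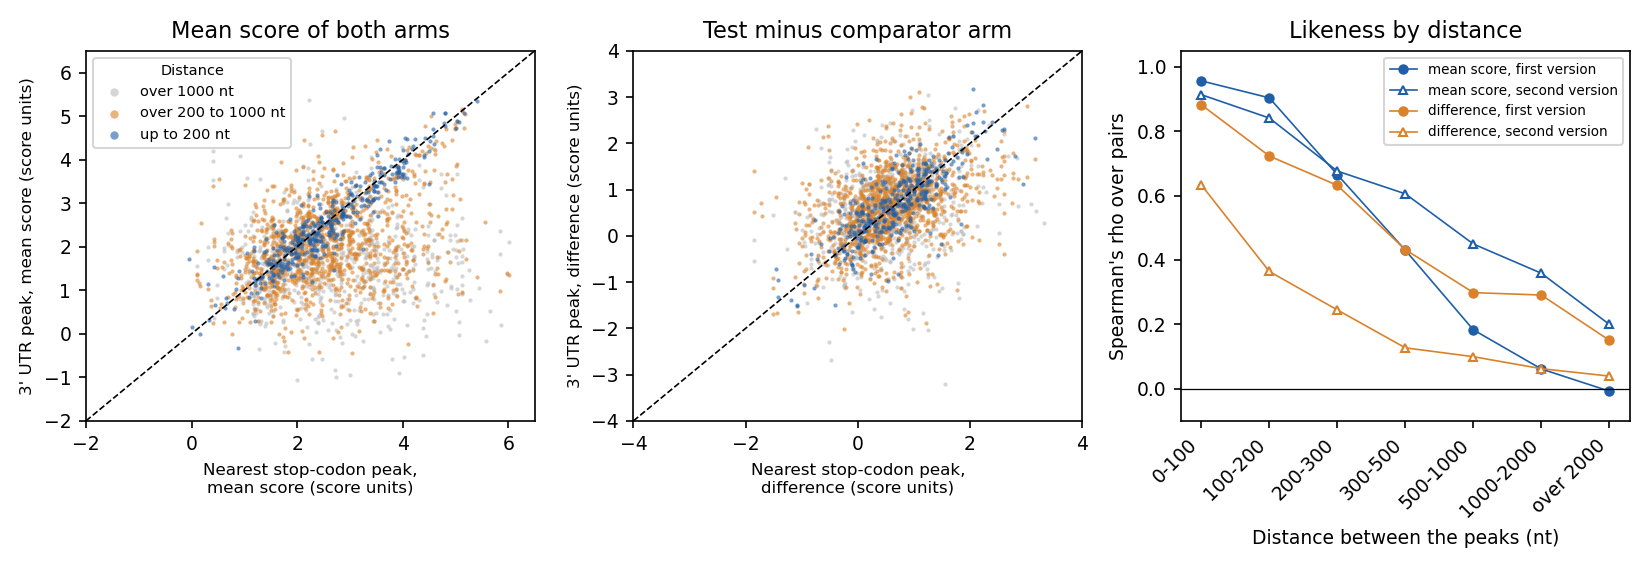
Left and middle: mean score of both arms and test minus comparator difference of each 3' UTR peak (y axis) against its nearest stop-codon peak (x axis), first version, in score units, coloured by the distance between the 2 peaks; the dashed line marks equality. Right: Spearman's rho over pairs in 7 bands of distance. Pairs up to 200 nt apart lie closer to the line than those farther apart, and rho of the first-version mean score goes from 0.96 within 100 nt to -0.0076 beyond 2000 nt.

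Membership of the METTL3-dependent list was shared unevenly within pairs. The nearest stop-codon peak was listed for 506 of the 912 listed 3' UTR peaks (55.5%) and for 480 of the 1336 others (35.9%). In pairs up to 200 nt apart these shares were 65.0% and 23.1%, and in pairs beyond 1000 nt they were 54.3% and 38.3%. By transcript, 695 of the 1421 (48.9%) had a listed 3' UTR peak of this set and 712 (50.1%) a listed stop-codon peak. Both were present on 401, which is 57.7% of the former and 56.3% of the latter. A listed 3' UTR peak with no listed stop-codon peak was found on 294 transcripts, the reverse on 311 and neither on 415.

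Peak strength and the listed share both took lower values far from the stop codon. Within 100 nt of the stop-codon peak 58 of 114 were listed (50.9%, 41.3% to 60.4%), between 300 and 500 nt 176 of 427 (41.2%, 36.5% to 46.1%) and beyond 2000 nt 90 of 270 (33.3%, 27.7% to 39.3%). The median of the mean score in the same bands was 2.37, 2.16 and 1.51 on the first version. The median first-version difference was 0.68, 0.68 and 0.52 in these bands, but on the second version it was 0.94, 0.87 and 0.90. The listed share of the stop-codon peaks in the same pairs stayed between 42.1% and 47.4% in all 7 bands.

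Peak strength moves with distance, so the listed share was also read separately above and below the median of the mean score. Above it the share was 50.8% up to 300 nt and 44.1% beyond 1000 nt. Below it the share was 37.0% and 30.6%. The 95% intervals overlapped (46.0% to 55.6% and 37.4% to 50.9% for the stronger, 30.4% to 43.9% and 26.4% to 35.2% for the weaker). The mean score itself still differed between these distances, with medians of 2.68 and 2.42 above and 1.51 and 1.24 below, so strength was not held constant and its part in the listed share was not tested.

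**Figure D4:**
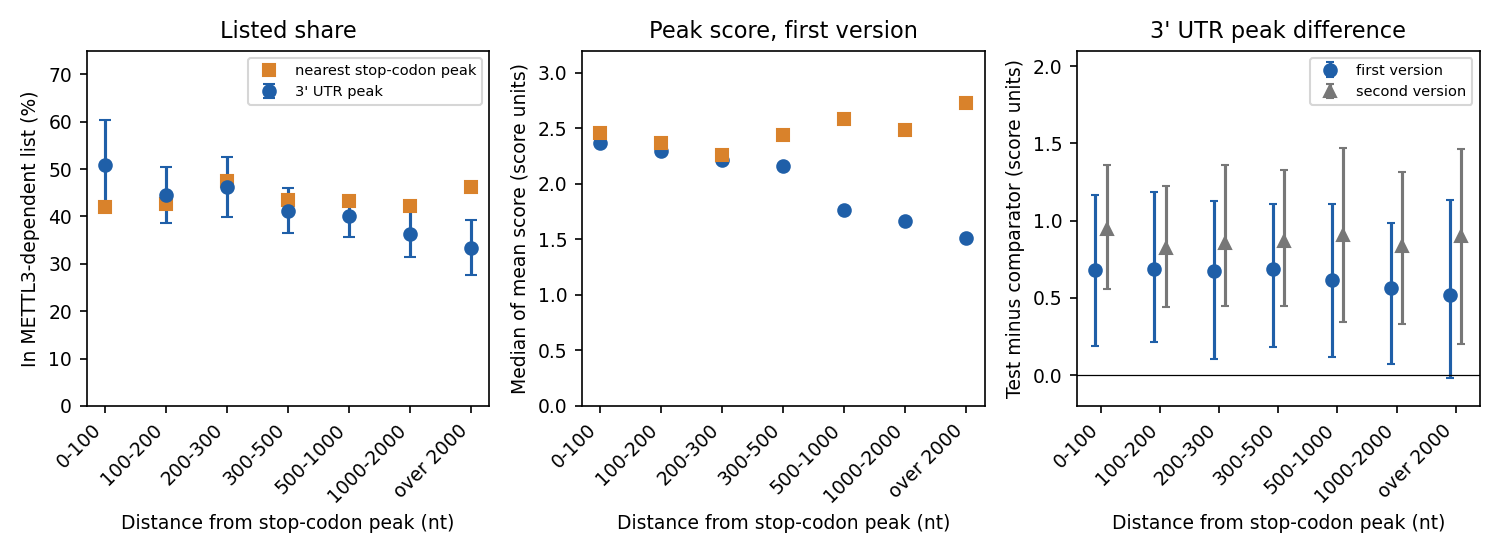
Values by distance between the 3' UTR peak and its nearest stop-codon peak (x axis, nt). Left: percent in the METTL3-dependent list, with exact 95% intervals for the 3' UTR peaks; middle: median of the first-version mean score of both arms; right: median test minus comparator difference of the 3' UTR peaks with quartiles as bars, on both versions. The listed share of 3' UTR peaks goes from 50.9% to 33.3% and their median score from 2.37 to 1.51, while the second-version difference is 0.94 in the nearest band and 0.90 in the farthest.

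Many transcripts carried more than 1 peak of this kind. There were 924 transcripts with 1, 298 with 2, 122 with 3 and 77 with 4 or more, up to 9. On the 497 transcripts with at least 2, neighbouring peaks were a median of 226 nt apart (quartiles 103 to 531), and 193 of 827 spacings were under 100 nt. All such peaks of the transcript were listed on 92 of the 497 (18.5%), some on 225 (45.3%) and none on 180 (36.2%). The peak nearest the stop codon had a higher first-version mean score than the last one on 330 transcripts (66.4%), with medians of 2.16 and 1.75. On the second version the share was 58.8%, with medians of 3.01 and 2.59. The median first-version differences of the first and last peaks were 0.63 and 0.63. The first peak had the larger one on 245 of the 497 transcripts (49.3%). Listed were 207 of the first peaks (41.6%) and 190 of the last (38.2%).

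The transcript with the most such peaks lies on chromosome 11, where its 9 peaks fall between positions 72738447 and 72740448 of the build taken as mm9, 215 to 2216 nt after a stop-codon peak at position 72738232. In the authors' deposited table their test-arm scores ranged from 2.33 to 3.99 and their comparator-arm scores from 1.88 to 3.23. The test arm was higher for all 9 on both versions, with first-version differences from 0.31 to 1.24. The replicate calls did not follow these scores: most of the 9 peaks were called in more comparator than test replicates. Only the peak at position 72740321 had more test calls, 2 against 1. The authors' deposited table gave the stop-codon peak of this transcript scores of 3.41 and 3.32 and a difference of 0.091. So all 9 peaks had a larger first-version difference than the stop-codon peak; 5 of them are listed and the stop-codon peak is not.

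Within the 50 nt allowed, the distance to the motif had a median of 12 nt (quartiles 4 to 22), with 1077 peaks on its negative side, 1066 on its positive side and 105 at 0. Its letters are not stated in the table. The listed share was 48.6% at a distance of 0, 47.5% from 1 to 5 nt, 41.5% from 6 to 10 nt and 37.4% from 11 to 20 nt. Farther out it was 38.9% from 21 to 30 nt, 31.7% from 31 to 40 nt and 33.3% from 41 to 50 nt. Calls in at least 2 replicates of an arm were recorded for 41.9%, 36.2%, 32.3%, 25.9%, 27.1%, 17.6% and 11.6% of the peaks in these bands. The median first-version difference ran without a steady order over the bands, between 0.57 and 0.71, and the second-version difference lay between 0.77 and 0.91. The median of the mean score was 2.22 at a distance of 0 and 1.87 from 41 to 50 nt; its part in the listed share was not tested. Just inside the limit, at 46 to 50 nt, 17 of 60 peaks were listed (28.3%) with a median difference of 0.52 by the first version and 0.67 by the second. Just outside it, at 51 to 55 nt on transcripts with a stop-codon peak, 17 of 61 were (27.9%) with 0.40 and 0.74.

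The start of the same transcripts went the other way. A peak at the transcript start was present on 708 of the 1421 transcripts (49.8%), and the strongest 3' UTR peak of the set was taken from each. On the first version the median difference was 0.67 at the 3' UTR peak and -0.38 at the start peak, and the 3' UTR peak had the larger one on 620 transcripts (87.6%). On the second version the medians were 0.90 and -0.23, with 607 transcripts (85.7%). Of the start peaks 34 were listed (4.80%) and 162 met the mirror-image rule (22.9%), against 328 listed 3' UTR peaks (46.3%). Among all 32009 peaks, 28.1% were listed and 10.7% met the mirror-image rule. Differences and listed shares were not worked out for start peaks of other transcripts. Whether the direction at the start is particular to these transcripts was therefore not tested. The gap between the 2 peaks of a transcript had a median of 1.02 (quartiles 0.53 to 1.58) by the first version and 1.06 (0.45 to 1.70) by the second.

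**Figure D5:**
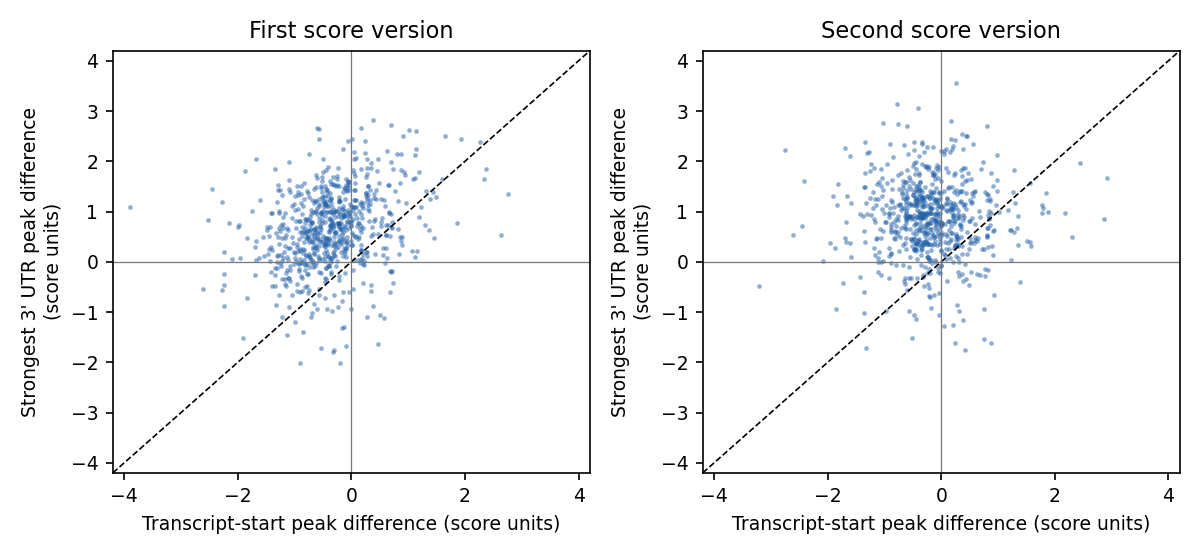
Test minus comparator difference of the strongest 3' UTR peak (y axis) against that of the transcript-start peak (x axis) for the 708 transcripts with both, in score units, on the first (left) and second (right) version; each point is 1 transcript and the dashed line marks equality. Most points lie above the line, 87.6% and 85.7%.

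For single peaks the identifier is that of the UCSC-style transcript in the table, as no gene name could be matched to it; these 4 were chosen for their extreme first-version differences. The largest difference in the authors' deposited table, 3.17, belonged to a peak of uc008isc.1 on chromosome 2 at position 25303696, 180 nt after its stop-codon peak and 9 nt from the motif. Its test-arm score was 4.70 and its comparator-arm score 1.53 (second version 4.02 and 0.99), and all 3 test replicates and no comparator replicate called it. Its unadjusted p in the authors' deposited table was 0.0355, and 0.0532 for the second version (Benjamini-Hochberg adjusted over all peaks 0.413 and 0.340). The stop-codon peak beside it scored 3.98 and 1.92 in the authors' deposited table, a smaller difference of 2.06, and is not listed.

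The next in the authors' deposited table was a peak of uc008tyw.2 on chromosome 4 at position 106420058, which scored 3.18 and 0.070, a difference of 3.11, and unadjusted p-values of 0.0586 and 0.178. It lay 682 nt after a stop-codon peak that scored 3.84 and 2.75 on the first version but 3.58 and 4.34 on the second. This pair was thus higher in the test arm at the 3' UTR on both versions, and at the stop codon on the first alone.

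At the other end, the authors' deposited table gave a peak of uc008vtc.1 on chromosome 4 at position 147197646 scores of -1.31 and 1.90, a difference of -3.21, with unadjusted p-values of 0.0473 and 0.0390. Its stop-codon peak, 2002 nt upstream, had 2.09 and 0.55 and is listed, so the 2 peaks of this transcript pointed in opposite directions on both versions. A peak of uc009aeq.2 on chromosome 5 at position 138581893 had -0.44 and 2.24, a difference of -2.68, in the authors' deposited table, with unadjusted p-values of 0.133 and 0.313. It lay 3995 nt after a stop-codon peak that scored 3.63 and 4.11 and was called in all 6 replicates. Each of these last 2 3' UTR peaks was called in 1 comparator replicate and in no test replicate.

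Further peaks were picked by strength, distance and calls and are given by position. The highest first-version mean score, 5.36, was on chromosome 3 at position 33708222, exactly at a motif, with scores of 5.45 and 5.27 in the authors' deposited table. Its second-version mean was 3.43, where the highest of the set was 5.34. The peak is listed, and the authors' deposited table gives a first-version difference of 0.17 (unadjusted p 0.685) and a second-version difference of 0.49 (unadjusted p 0.0248). Its stop-codon peak, 2204 nt upstream, had a mean score of 2.22. The farthest peak, 9397 nt from its stop-codon peak, was on chromosome 1 at position 63094986, and scored 2.31 and 1.67 in the authors' deposited table. After uc008isc.1, the largest difference among the peaks called in 3 test and 0 comparator replicates was 2.44, on chromosome 10 at position 90452225. The 2 peaks called in 3 comparator and 0 test replicates lay on chromosome 19 at position 3455273 and on chromosome 5 at position 73412072, and both scored higher in the test arm all the same, by 1.52 and 0.24 in the authors' deposited table. In these 2 peaks the calls and the scores point in opposite directions.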

How the data were processed

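The 2 deposited tables used here hold all de novo peaks and the METTL3-dependent list, whose 9005 peaks were all found among the former. The authors' peak score is, per the file headers, 1 pooled value per arm in 2 versions; its p-value, deposited unadjusted, is missing on the first version for 2 peaks of the set. The submitters' processing notes name DESeq2, HTSeq, STAR, SAMtools 1.3.1 and cutadapt and the builds mm9 and mm10, with no role; peak caller, score formula and test are not given there. Positions of 164 peaks, 8 of them in the set, run past GRCm38 chromosome ends, so mm9 was taken and no sequence or annotation was drawn from the GRCm38 reference. None of the transcript identifiers matched a gene name.

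The members and comparisons were chosen with earlier results of these data known. Recomputed here were set membership, pairs with the nearest stop-codon peak, medians, Clopper-Pearson intervals and Benjamini-Hochberg adjustment over all peaks; the code was tested on simulated data. Peaks were named by the 2 largest and 2 most negative differences, the highest mean score, the transcript with most members, the farthest member and the most one-sided replicate calls. The planned gene and marker lists could not be applied. Python 3.11.15, numpy 2.4.6, pandas 2.3.3, scipy 1.17.1 and matplotlib 3.10.9 were used.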

Additional observations from a re-analysis of the deposited data

How the results depend on the processing

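Of 42 alternatives, 26 fell inside the 95% interval of the reported value (exact for shares, from order statistics for medians; counts of peaks: within 1.5 times), and in 16 the value moved. The listed share of 40.6% was 38.4% with a motif within 100 nt, 52.9% among peaks called in at least 2 replicates of an arm, and 13.1% and 19.4% with a p under 0.05 on the first and second version. The median difference of 0.63 was 0.87 on the second version, 0.59 with a motif within 100 nt and 0.68 among peaks called in at least 2 replicates of an arm. The score gap to the stop-codon peak, -0.32, was -0.37 against the strongest stop-codon peak, -0.21 with the strongest peak of each transcript and -0.54 at least 200 nt away. The gap in difference, 0.038, was 0.091 where both peaks had calls in at least 2 replicates, on 260 pairs. The 95% interval of that value, -0.061 to 0.201, covers both 0 and 0.038. The median distance was 421 nt with the strongest peak of each transcript. Calls in all 3 replicates were 11.5% (test arm) and 4.36% (comparator arm), and calls in at least 1 were 61.5% and 43.5%. Some of these moves are fixed in direction by construction. The call thresholds change the count, and a p under 0.05 on 1 version can only lower the listed share. Taking the strongest stop-codon peak cannot raise the score gap. For the other moves the cause was not tested. The alternatives with p and direction from the same version and with at least 1 call were chosen after seeing the data. Alternatives that took each position once could not differ from the reported values, since 0 peaks of the set shared a position. No paired analysis was possible because the table pools the replicates of each arm, and no replicate could be left out. Depth is unknown, so what it limits cannot be set in numbers.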

Other observations

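The 1421 transcripts held a median of 4 peaks in all, against 2 on the 4026 other transcripts with a stop-codon peak; the rule itself asks for at least 2. Among parts the rule did not use, a coding-sequence peak was on 572 (40.3%). This was above the 35.2% of the others but below the 43.2% of all 14219 transcripts. A transcript-start peak was on 708 (49.8%), against 43.0% and 46.7%, and a peak in the 5' UTR beyond the start on 126 (8.87%), against 5.74% and 7.18%. On the 572 transcripts with a coding-sequence peak, the one nearest the strongest 3' UTR peak had a median first-version difference of 0.15, against 0.57 at the 3' UTR peak, and 128 of them were listed (22.4%), against 213 (37.2%). On the second version the medians were 0.46 and 0.81. On the 126 transcripts with a 5' UTR peak the first-version medians were -0.16 there and 0.65 at the 3' UTR peak, and the second-version medians 0.0042 and 0.88.

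Of the 185 peaks that scored lower in the test arm on both versions, 23 had an unadjusted p under 0.1 on either version. Their nearest stop-codon peak scored higher in the test arm on both versions in 126 cases (68.1%) and lower on both in 13 (7.03%). Over all 2248 pairs these shares were 76.2% and 4.80%. More comparator than test replicates called 100 of the 185, more test replicates called 29, and 42 had no call. Over all peaks these shares were 29.3%, 38.0% and 15.9%. The 185 were picked by scores from the same libraries as the calls, so the calls are not separate evidence. No matching counts were made for the peaks of the whole table that were lower on both versions.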
